A study of Homo sapiens with 16 samples.

Results

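The 39 genes described here encode the glucose transporters and enzymes of glycolysis (27 genes, with those that settle the fate of pyruvate and lactate) and the oxygen sensors and target genes of the hypoxia response (12 genes). They were taken by symbol from a fixed set of names, chosen with earlier results of these data known, and stood among 23396 genes of the authors' 4 deposited tables. Of the 39 genes, 38 were in every table; CA9 was missing from the table for siRFX7 under Nutlin-3a. The cells were U2OS, a human osteosarcoma line that keeps functional p53. They carried siControl, a control siRNA, or siRFX7, directed at the transcription factor RFX7, and were exposed for 24 h to DMSO, the solvent, or to Nutlin-3a at 10 µM, which frees p53 from its inhibitor MDM2. The 4 groups were siControl with DMSO, siControl with Nutlin-3a, siRFX7 with DMSO and siRFX7 with Nutlin-3a, with 4 poly(A) RNA libraries each and 16 in all. All groups had therefore been transfected and had received solvent or compound, and no untreated cells are among them.

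The labels do not say whether the 4 libraries of a group came from separate cultures, so the p-values measure the spread between these libraries, which may be technical. Loss of RFX7 and any other effect of its siRNA cannot be told apart in this design. The tables hold group comparisons and no value of a single library, so errors are the authors' standard errors (SE), and whether single libraries of 2 groups overlapped could not be seen. RFX7 fell by 2.42 on the log2 scale with its siRNA under DMSO and by 2.37 under Nutlin-3a per the authors' deposited tables. CDKN1A, the p53 target that halts the cell cycle, rose by 3.24 in siControl and 2.98 in siRFX7 with Nutlin-3a per the authors' deposited tables. It was also higher with siRFX7 under DMSO, by 0.60 ± 0.04 (SE), per the authors' deposited table. Its response was thus smaller in siRFX7, by -0.26 ± 0.05 (SE, adjusted p 0.000305 in the normal test of the difference described below). Of 8 osteoblast lineage markers, 7 were in the authors' deposited table for Nutlin-3a in siControl and 5 had a base mean, the mean normalised read count over its 8 libraries, of at least 100; SP7 was not listed and BGLAP had a base mean of 4.25. All 4 epithelial markers were also at 100 or more, while the listed leukocyte and endothelial markers stayed at or under 17.8.

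Glycolysis splits glucose into pyruvate: hexokinases trap the sugar, phosphofructokinase commits it, and the lower enzymes yield ATP. Lactate dehydrogenase turns pyruvate into lactate, which leaves through monocarboxylate transporters, whereas pyruvate dehydrogenase, which the PDK kinases inhibit, feeds it to mitochondria. When oxygen is short, the prolyl hydroxylases EGLN1 and EGLN3 no longer mark HIF alpha subunits for decay, and HIF with its partner ARNT binds the letters ACGTG or GCGTG near many of these genes. Activated p53 is known to restrain glycolysis in part through targets such as TIGAR. RFX7 is a winged-helix factor known to act downstream of p53 in the regulation of a set of genes.

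Promoters of 6 genes are shown first as examples, picked for their changes and their letters, so they are no test of a link between the 2. EGLN1, BNIP3, P4HA1, PDK1 and LDHA changed and hold ACGTG near their start. HKDC1, with the largest difference of responses, holds the other HIF core, GCGTG. Not shown are genes with ACGTG that fell with siRFX7 (HK2, SLC16A3 and, under DMSO alone, PFKM and, under Nutlin-3a alone, TPI1). Nor are those with ACGTG that were called nowhere (ALDOA, PDK3, CA9 and ANKRD37). Each run is the RefSeq window (GRCh38.p14) from 250 bases before to 50 bases after a transcript start, 5′ to 3′ on the gene's strand, and capitals mark ACGTG or GCGTG on either strand (CACGT and CACGC on the strand shown; adjoining or overlapping matches run together).
EGLN1: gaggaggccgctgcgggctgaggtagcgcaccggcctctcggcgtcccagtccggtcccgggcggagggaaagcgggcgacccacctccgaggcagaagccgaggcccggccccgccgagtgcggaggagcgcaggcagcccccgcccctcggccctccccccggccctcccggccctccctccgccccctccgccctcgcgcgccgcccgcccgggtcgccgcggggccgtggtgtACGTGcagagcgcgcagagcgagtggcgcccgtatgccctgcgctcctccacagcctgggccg
BNIP3: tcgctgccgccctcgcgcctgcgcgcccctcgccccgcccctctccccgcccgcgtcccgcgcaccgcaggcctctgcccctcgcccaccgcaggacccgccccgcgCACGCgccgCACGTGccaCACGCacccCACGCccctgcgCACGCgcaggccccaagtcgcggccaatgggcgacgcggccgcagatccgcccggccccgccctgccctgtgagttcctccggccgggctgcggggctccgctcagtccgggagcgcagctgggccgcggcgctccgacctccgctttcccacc
P4HA1: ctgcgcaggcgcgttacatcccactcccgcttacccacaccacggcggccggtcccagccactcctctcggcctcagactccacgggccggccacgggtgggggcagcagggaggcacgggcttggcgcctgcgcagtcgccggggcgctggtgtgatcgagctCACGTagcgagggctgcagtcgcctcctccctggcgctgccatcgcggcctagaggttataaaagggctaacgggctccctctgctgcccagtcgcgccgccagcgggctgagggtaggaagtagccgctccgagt
PDK1: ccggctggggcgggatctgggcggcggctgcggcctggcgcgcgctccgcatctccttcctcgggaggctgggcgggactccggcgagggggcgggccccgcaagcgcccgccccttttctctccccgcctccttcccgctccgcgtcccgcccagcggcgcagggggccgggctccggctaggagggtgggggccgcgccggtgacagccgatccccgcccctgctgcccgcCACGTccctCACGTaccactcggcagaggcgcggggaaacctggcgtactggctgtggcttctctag
LDHA: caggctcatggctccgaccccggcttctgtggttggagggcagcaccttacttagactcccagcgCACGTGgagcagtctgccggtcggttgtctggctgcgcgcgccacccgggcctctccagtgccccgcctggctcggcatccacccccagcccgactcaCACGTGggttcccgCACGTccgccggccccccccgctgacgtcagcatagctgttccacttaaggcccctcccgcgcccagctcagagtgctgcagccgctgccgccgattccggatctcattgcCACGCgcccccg
HKDC1: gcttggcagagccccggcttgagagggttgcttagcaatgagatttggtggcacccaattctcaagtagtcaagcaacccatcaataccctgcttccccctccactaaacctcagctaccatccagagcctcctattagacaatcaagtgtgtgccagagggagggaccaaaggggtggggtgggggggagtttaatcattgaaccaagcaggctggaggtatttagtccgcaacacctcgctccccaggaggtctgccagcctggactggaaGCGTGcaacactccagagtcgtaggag
The windows lie at chr1:231422238-231422537 for EGLN1 and chr10:131981874-131982173 for BNIP3, both on the minus strand, and at chr10:73096817-73097116 for P4HA1, also minus. Those of the plus strand lie at chr2:172555840-172556139 for PDK1, chr11:18394313-18394612 for LDHA and chr10:69220082-69220381 for HKDC1. BNIP3 and LDHA held 6 matches each, PDK1 2, and EGLN1, P4HA1 and HKDC1 1 each; the match of HKDC1 was GCGTG, after its start. PDK1 and LDHA each have a further window in the table, with 0 and 1 matches.

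Across the 33 genes with a RefSeq window (60 windows), ACGTG on either strand stood in 24 windows (40.0%) of 20 genes, against 21.4% of all 35116 windows of the table. The other 6, BNIP3L, NDRG1, PFKFB2, SLC16A1, SLC2A3 and VEGFA, had no window. Whether they hold these letters is not known here, and the counts by motif leave them out. GCGTG stood in 41.7% of the 60 windows against 36.5% of all windows. The E-box CACGTG, which contains ACGTG on both strands, stood in 13.3% against 7.26%. GTTGCC, the core of the X-box that RFX proteins bind, stood in 6.67% (ADM, HIF1A, PKM and TPI1) against 12.2%, and the p53 decamer in 6.67% (CA9, HK1 and PGAM1) against 6.63%. Such matches describe letters and are not shown to be binding sites. Under siRFX7 with DMSO, 10 of the 20 genes with ACGTG rose and 3 fell, and of the 13 without it 6 rose and 3 fell, in the authors' deposited table, where 19.9% of all genes rose and 17.5% fell, or 35.6% and 20.3% at a base mean of 1000 or more. Under Nutlin-3a, siRFX7 raised 6 and lowered 3 of the 19 listed with it, and raised 5 and lowered 2 of the 13 without. Of all genes 17.2% rose and 15.4% fell there, or 33.5% and 19.2% at a base mean of 1000 or more. Per the authors' deposited tables, Nutlin-3a raised 3 and lowered 6 of the 20 in siControl and raised 1 and lowered 8 in siRFX7. Of the 13 without ACGTG, 4 rose and 2 fell in siControl and 3 rose and 3 fell in siRFX7 per the authors' deposited tables. Of all genes 18.3% rose and 19.6% fell in siControl, and 18.7% and 20.3% in siRFX7. At a base mean of 1000 or more it was 22.4% and 41.1% in siControl, and 21.7% and 42.0% in siRFX7.

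Per exon length, the 39 genes spanned from 90460 normalised counts per kb for GAPDH to 3.44 for CA9 in siControl under DMSO. These group mean levels were derived from base mean and log2 fold change, and those of the other groups were placed on the siControl scale, because the tables had been normalised separately. After GAPDH came ENO1 at 19740, PKM at 16760, LDHB at 13540, LDHA at 8387 and TPI1 at 7985 counts per kb, all enzymes of lower glycolysis or lactate formation apart from TPI1, which joins its upper and lower parts. HIF1A was the highest of the oxygen-sensing and hypoxia genes at 3337 counts per kb. By the same length-scaled levels HK1 made up 76.1% of the 3 hexokinases in siControl under DMSO, HK2 20.8% and HKDC1 3.05%. SLC2A1 made up 72.5% of the pair of glucose transporters, ENO1 95.6% of the enolases, PFKP 46.4% of the phosphofructokinase subunits and HIF1A 94.9% of the HIF alpha subunits. These levels have no error of their own here.

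**Figure D1:**
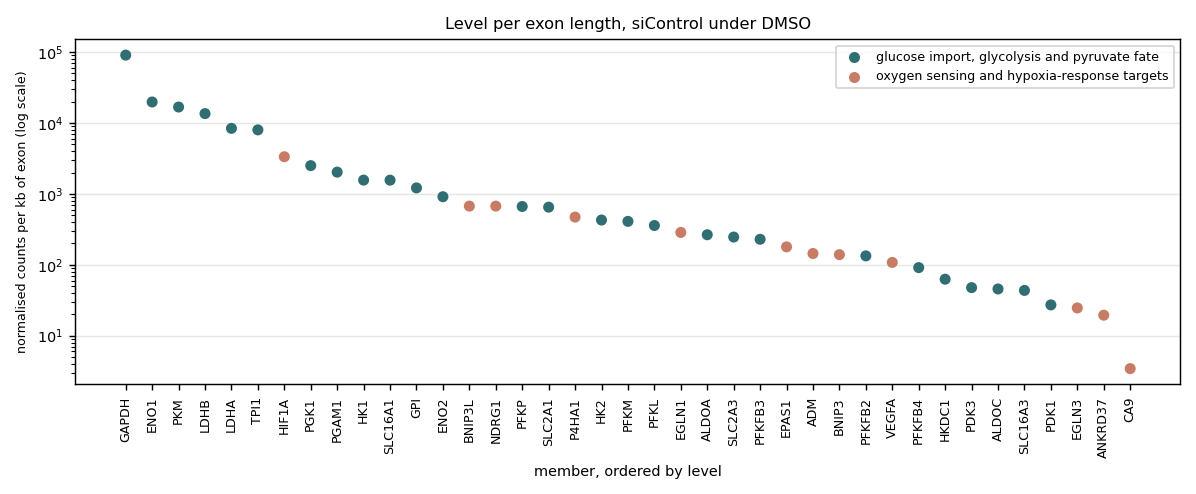
Group mean level of each of the 39 genes in siControl under DMSO, in normalised counts per kb of exon on a log axis, ordered by level; each point is a single derived value without an error bar, and colour separates glucose import, glycolysis and pyruvate fate from oxygen sensing and hypoxia-response targets. GAPDH stands at 90460 and CA9 at 3.44 counts per kb, and the oxygen-sensing and hypoxia-response genes reach from HIF1A at 3337 down to CA9.

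For 9 genes the count itself is uncertain, since more than 25% of their transcript or exon bases recur in a near-identical copy (at least 95% identity over 100 bases) or lie under another gene on the same strand in GENCODE 29. These were SLC2A3 (79.8% of the transcript in SLC2A14), HK2, ALDOA, TPI1, GAPDH, PGAM1, LDHA, LDHB and BNIP3. How the authors counted reads that fit 2 genes is not given in the sources used here, and its part in the results was not tested. Exons of CA9 and ANKRD37 overlap a gene of the opposite strand for 38.5% and 35.2% of their length.

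Nutlin-3a raised some of these genes and lowered others, in siControl and in siRFX7 alike. In siControl 10 of 39 rose and 9 fell (19 of 39, 48.7%) at an adjusted p under 0.05 in the authors' deposited table, where 37.9% of all 23353 genes were called, 18.3% higher and 19.6% lower. In siRFX7 7 rose and 12 fell (19 of 39, 48.7%) against 39.1% of 21382 genes, 18.7% higher and 20.3% lower, in the authors' deposited table. Of the 39, 27 had a base mean of at least 1000, where the median of all genes was 226. Among genes at that level 63.5% were called in siControl (22.4% higher, 41.1% lower) and 63.7% in siRFX7 (21.7% higher, 42.0% lower), which is above the share of the 39. The median log2 fold change of the 39 was -0.03 in siControl and -0.07 in siRFX7. Over all genes the median was 0.01 in both of the authors' deposited tables. Among genes at a base mean of 100 or more it was -0.0276 in siControl and -0.0257 in siRFX7. SLC2A3, PFKL, EPAS1 and NDRG1 rose in both tables (4 genes; 14.8% of all genes in both tables did), and HK2, GPI, PFKFB3, PGK1, LDHA and SLC16A1 fell in both (6 genes; 17.0%). None was called in opposite directions, as were 0.075% of all genes. Over 38 genes, without CA9, Pearson's r between the responses was 0.702 and Spearman's rho 0.773, a description across genes from tables that share no library. In bulk RNA a change within each cell and a change in the share of cells that express a gene cannot be told apart.

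**Figure D2:**
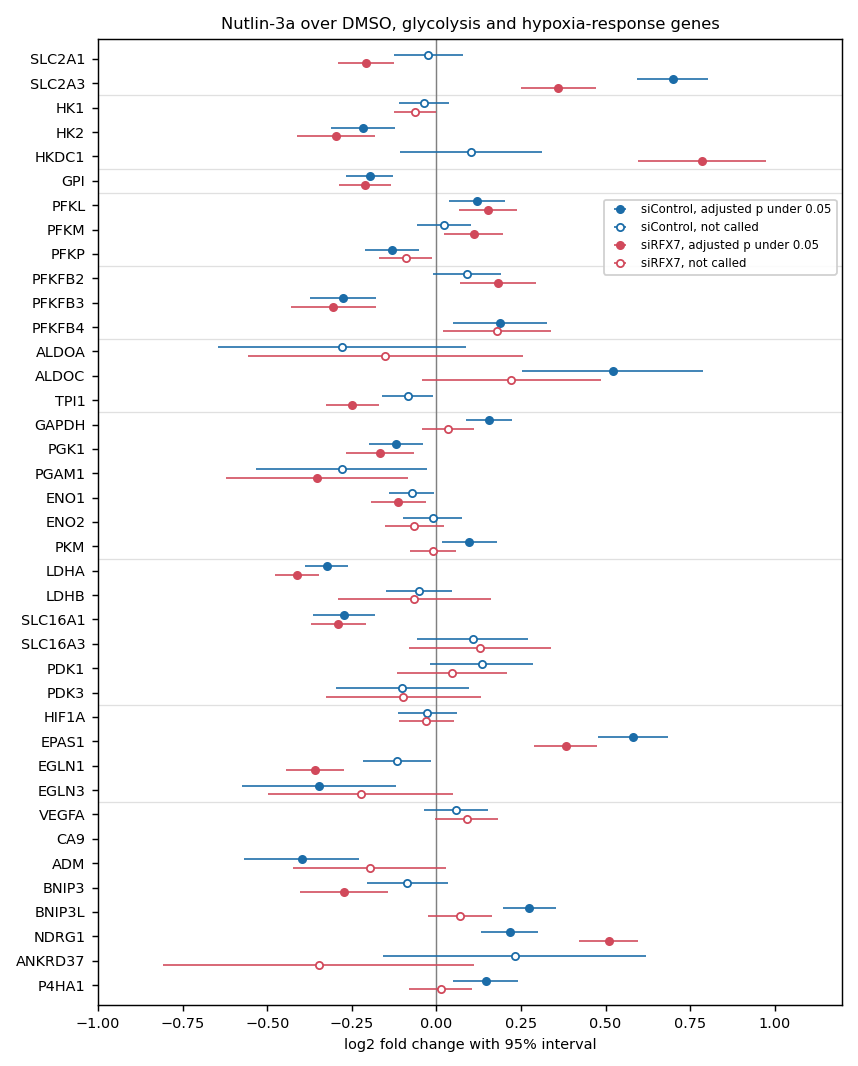
Log2 fold change of Nutlin-3a over DMSO for each gene except CA9, with 95% intervals, in siControl (blue) and siRFX7 (red); filled points have an adjusted p under 0.05, open points do not, and grey lines separate roles. SLC2A3 and EPAS1 lie to the right and LDHA, SLC16A1 and HK2 to the left of 0 in both, while HKDC1 is filled in siRFX7 and open in siControl.

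The siRNA against RFX7 raised more of these genes than it lowered, as it did among all genes of high base mean. Under DMSO 19 of 39 rose and 9 fell (28 of 39, 71.8%) per the authors' deposited table, where 37.4% of 19511 genes were called, 19.9% higher and 17.5% lower. At a base mean of 1000 or more it was 55.9%, 35.6% higher and 20.3% lower. Under Nutlin-3a 14 of 38 rose and 7 fell (21 of 38, 55.3%) per the authors' deposited table, where 32.6% of 20335 genes were called, 17.2% higher and 15.4% lower, and at a base mean of 1000 or more 52.7%, 33.5% higher and 19.2% lower, near the share of the members. The median of the members was 0.11 under DMSO and 0.06 under Nutlin-3a, against -0.0024 and -0.0053 over all genes of the authors' deposited tables. Among genes at a base mean of 100 or more it was 0.0134 and 0.0112. Under both treatments 12 rose (SLC2A1, SLC2A3, GPI, PFKP, PGAM1, ENO2, PDK1, HIF1A, EPAS1, VEGFA, BNIP3 and P4HA1), as did 14.2% of all genes in both tables. HK2, PFKL, PFKFB2, LDHB, SLC16A1 and SLC16A3, 6 genes, fell under both, as did 11.9% of all genes. SLC2A1, SLC2A3 and both HIF alpha subunits were thus among those that rose, and SLC16A1 and SLC16A3 among those that fell. Of other transporters of these families, in the related lists, SLC2A6 and SLC2A10 fell and SLC16A7 rose under both treatments. SLC2A12 was called higher with siRFX7 under DMSO and lower under Nutlin-3a. At a size of at least 0.25 on the log2 scale, 11 rose and 4 fell under DMSO and 9 rose and 4 fell under Nutlin-3a. The share of all genes that passed at this size was not taken, so these counts have no background beside them. Over all called genes of these comparisons the median size was 0.30 and 0.29. Of the 4 epithelial markers EPCAM and CDH1 were also higher with siRFX7 per the authors' deposited table for DMSO, by 0.54 ± 0.11 and 0.85 ± 0.13 (SE), while the more abundant KRT8 and KRT18, at 0.06 ± 0.03 and 0.04 ± 0.03 (SE), did not pass. The osteoblast markers COL1A1, SPARC and ALPL rose there too, by 0.38 ± 0.04, 0.22 ± 0.03 and 0.28 ± 0.08 (SE), per the authors' deposited table, and the part of these markers in the results was not tested. Over 38 genes r was 0.743 and rho 0.761 between the siRFX7 effects, again across genes and from tables without a shared library.

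**Figure D3:**
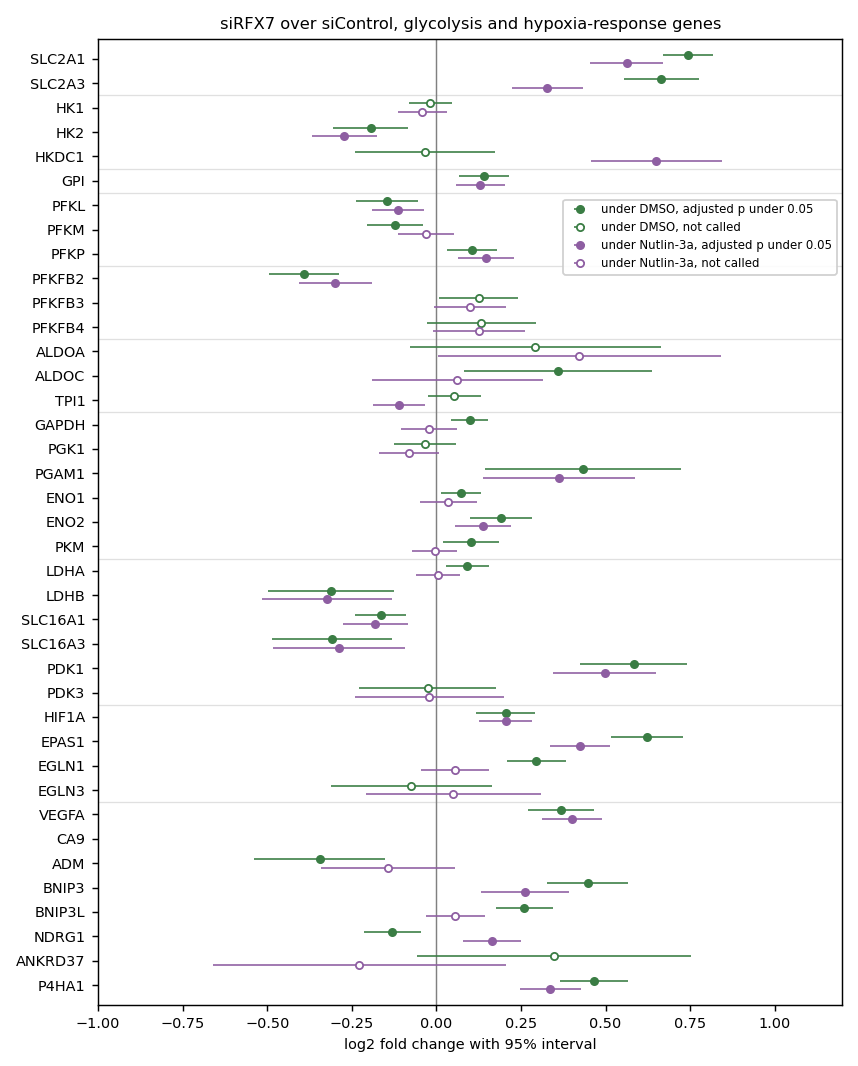
Log2 fold change of siRFX7 over siControl for each gene except CA9, with 95% intervals, under DMSO (green) and under Nutlin-3a (purple); filled points have an adjusted p under 0.05 and open points do not. SLC2A1, SLC2A3, PDK1, EPAS1, VEGFA, BNIP3 and P4HA1 lie to the right and PFKFB2, LDHB and SLC16A3 to the left of 0 under both treatments, and NDRG1 is filled on both sides.

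Both glucose importers were higher with siRFX7, and their responses to Nutlin-3a were unlike each other. SLC2A1 (ENSG00000117394, chr1:42925375-42959176, minus strand), the widespread transporter GLUT1, stood at 3067 in siControl under DMSO, 3017 in siControl with Nutlin-3a, 5140 in siRFX7 under DMSO and 4452 in siRFX7 with Nutlin-3a, in normalised counts. The siRFX7 groups were thus above both siControl groups. In the authors' deposited tables siRFX7 raised it by 0.74 ± 0.04 (SE; adjusted p 1.55e-83) under DMSO and 0.56 ± 0.05 (SE; adjusted p 6.24e-23) under Nutlin-3a. Nutlin-3a changed it by -0.02 ± 0.05 (SE; adjusted p 0.78) in siControl, which did not pass, and by -0.21 ± 0.04 (SE; adjusted p 4.69e-06) in siRFX7, in the authors' deposited tables. SLC2A3 (ENSG00000059804, chr12:7919230-7936275, minus strand), the high-affinity transporter GLUT3, stood at 1515 in siControl under DMSO, 2459 in siControl with Nutlin-3a, 2402 in siRFX7 under DMSO and 3083 in siRFX7 with Nutlin-3a. It was lowest in siControl under DMSO and highest with both interventions. Nutlin-3a raised it by 0.70 ± 0.05 (SE; adjusted p 1.93e-37) in siControl and 0.36 ± 0.06 (SE; adjusted p 1.84e-09) in siRFX7 per the authors' deposited tables. With siRFX7 it rose by 0.66 ± 0.06 (SE; adjusted p 3.75e-30) under DMSO and 0.33 ± 0.05 (SE; adjusted p 1.53e-08) under Nutlin-3a per the authors' deposited tables. Its copy SLC2A14, with a base mean of 29.3, was also higher with siRFX7 under DMSO, by 0.74 ± 0.28 (SE; adjusted p 0.025) per the authors' deposited table.

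The hexokinases, which phosphorylate glucose, moved apart. HK1 (ENSG00000156515, chr10:69269984-69401884, plus strand), the widespread form, passed in no table; its log2 fold changes ranged from -0.06 to -0.02 in the authors' deposited tables. HK2 (ENSG00000159399, chr2:74833981-74893359, plus strand), the form most tied to tumour glycolysis, fell in all 4 of the authors' deposited tables. It fell with Nutlin-3a by 0.22 on the log2 scale in siControl (SE 0.05; adjusted p 3.94e-05) and by 0.30 in siRFX7 (SE 0.06; adjusted p 1.94e-06) per the authors' deposited tables. Its siRFX7 effects in the authors' deposited tables were -0.19 ± 0.06 under DMSO and -0.27 ± 0.05 (SE) under Nutlin-3a. HKDC1 (ENSG00000156510, chr10:69220303-69267559, plus strand), a less studied relative of the hexokinases, stood at 267 in siControl under DMSO, 286 in siControl with Nutlin-3a, 261 in siRFX7 under DMSO and 449 in siRFX7 with Nutlin-3a. A single group, siRFX7 with Nutlin-3a, stood above the other 3. Nutlin-3a raised it by 0.78 ± 0.10 (SE; adjusted p 4.73e-15) in siRFX7, while the value in siControl was 0.10 ± 0.11 (SE; adjusted p 0.514), in the authors' deposited tables. siRFX7 raised it by 0.65 ± 0.10 (SE; adjusted p 7.14e-10) under Nutlin-3a against -0.03 ± 0.11 (SE; adjusted p 0.844) under DMSO in the authors' deposited tables. Its share of the hexokinases per length was 5.58% in siRFX7 with Nutlin-3a and 3.05% to 3.44% in the other groups.

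In upper glycolysis 2 of 4 enzymes were called in each of the authors' deposited tables. Of all genes 32.6% to 39.1% were called, or 52.7% to 63.7% at a base mean of 1000 or more. GPI (ENSG00000105220, chr19:34359480-34402413, plus strand), which turns glucose phosphate into fructose phosphate, fell with Nutlin-3a by 0.20 and 0.21 on the log2 scale and rose with siRFX7 by 0.14 ± 0.04 and 0.13 ± 0.04 (SE) per the authors' deposited tables. ALDOA (ENSG00000149925, chr16:30064164-30070457, plus strand), the main aldolase, passed in no table, with SEs of 0.19 to 0.21, among the widest of these genes, in the authors' deposited tables; 42.3% of its exon length lies under AC093512.2. ALDOC (ENSG00000109107, chr17:28573115-28577264, minus strand), the aldolase best known from brain, rose by 0.52 ± 0.14 (SE; adjusted p 0.000552) with Nutlin-3a in siControl and by 0.36 ± 0.14 (SE; adjusted p 0.0325) with siRFX7 under DMSO in the authors' deposited tables. Its remaining values, 0.22 ± 0.13 and 0.06 ± 0.13 (SE), did not pass. TPI1 (ENSG00000111669, chr12:6867119-6870948, plus strand), which interconverts the triose phosphates, fell with Nutlin-3a in siRFX7 by 0.25 (SE 0.04) and with siRFX7 under Nutlin-3a by 0.11 (SE 0.04) on the log2 scale in the authors' deposited tables. The pseudogene TPI1P1, with a base mean of 8818 in the authors' deposited table for DMSO, was lower with siRFX7 there, at -0.27 ± 0.04 (SE; adjusted p 1.08e-08).

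The subunits of phosphofructokinase differed in direction. PFKL (ENSG00000141959, chr21:44300051-44327376, plus strand), the liver form, rose with Nutlin-3a with either siRNA, by 0.12 ± 0.04 and 0.15 ± 0.04 (SE), and fell with siRFX7, at -0.15 ± 0.05 and -0.11 ± 0.04 (SE), in the authors' deposited tables. PFKP (ENSG00000067057, chr10:3066333-3137712, plus strand), the platelet form and the highest of the 3 per length, went the other way. It fell with Nutlin-3a in siControl, at -0.13 ± 0.04 (SE), and rose with siRFX7 by 0.11 ± 0.04 and 0.15 ± 0.04 (SE) per the authors' deposited tables, while its response in siRFX7 did not pass (adjusted p 0.0551). PFKM (ENSG00000152556, chr12:48105139-48146404, plus strand), the muscle form, rose with Nutlin-3a in siRFX7 by 0.11 ± 0.04 and was lower with siRFX7 under DMSO at -0.12 ± 0.04 (SE) per the authors' deposited tables. PFKP's share of the 3 was 42.9% in siControl with Nutlin-3a and 50.5% in siRFX7 under DMSO.

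The PFKFB enzymes make and break down the allosteric activator of phosphofructokinase. PFKFB2 (ENSG00000123836, chr1:207034366-207081024, plus strand), known from heart, had the lowest siRFX7 effect of all called members under DMSO, -0.39 ± 0.05 (SE; adjusted p 2.43e-12), and again fell under Nutlin-3a, at -0.30 ± 0.05 (SE; adjusted p 5.54e-07), in the authors' deposited tables. It rose by 0.18 ± 0.06 (SE; adjusted p 0.00493) with Nutlin-3a in siRFX7 per the authors' deposited table. PFKFB3 (ENSG00000170525, chr10:6144934-6254644, plus strand), the inducible form with the strongest kinase activity, fell with Nutlin-3a at -0.28 ± 0.05 and -0.30 ± 0.06 (SE) per the authors' deposited tables, and its siRFX7 values of 0.13 ± 0.06 and 0.10 ± 0.05 (SE) did not pass. PFKFB4 (ENSG00000114268, chr3:48517684-48562015, minus strand) rose by 0.19 ± 0.07 (SE; adjusted p 0.0241) with Nutlin-3a in siControl in the authors' deposited table and passed in no other.

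In lower glycolysis, siRFX7 under DMSO raised 5 of 6 enzymes and lowered none, and under Nutlin-3a raised 2 and lowered none, where 35.6% and 33.5% of genes at a base mean of 1000 or more rose. The calls of ENO1 (adjusted p 0.102) and PKM (0.0913) under DMSO were lost when values were centred on the median gene. PGAM1 (ENSG00000171314, chr10:97426160-97433441, plus strand), phosphoglycerate mutase, showed the largest of these, 0.43 ± 0.15 (SE; adjusted p 0.0115), and 0.36 ± 0.11 (SE; adjusted p 0.00681) under Nutlin-3a, per the authors' deposited tables; it fell with Nutlin-3a in siRFX7, at -0.35 ± 0.14 (SE; adjusted p 0.0271). ENO2 (ENSG00000111674, chr12:6913745-6923698, plus strand), the neuronal enolase, rose with siRFX7 by 0.19 ± 0.05 and 0.14 ± 0.04 (SE) and showed no called response to Nutlin-3a per the authors' deposited tables. GAPDH (ENSG00000111640, chr12:6533927-6538374, plus strand), often used as a reference gene, rose with Nutlin-3a in siControl by 0.16 ± 0.03 (SE; adjusted p 3.03e-05) and with siRFX7 under DMSO by 0.10 ± 0.03 (SE; adjusted p 0.0021) per the authors' deposited tables. ENO1 (ENSG00000074800, chr1:8861000-8879250, minus strand), the main enolase, rose with siRFX7 under DMSO by 0.07 ± 0.03 and fell with Nutlin-3a in siRFX7 at -0.11 ± 0.04 (SE) per the authors' deposited tables; the latter call too was lost on centring (adjusted p 0.0818). PKM (ENSG00000067225, chr15:72199029-72231822, minus strand), the pyruvate kinase of most tissues, passed narrowly, with adjusted p 0.0495 for Nutlin-3a in siControl and 0.0463 for siRFX7 under DMSO, both higher, in the authors' deposited tables. PGK1 (ENSG00000102144, chrX:77910739-78129296, plus strand), the first ATP-forming enzyme, fell with Nutlin-3a, at -0.12 ± 0.04 and -0.17 ± 0.05 (SE), and passed in neither siRFX7 comparison of the authors' deposited tables.

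LDHA and SLC16A1 fell with Nutlin-3a, and LDHB, SLC16A1 and SLC16A3 fell with siRFX7, under which LDHA rose slightly. LDHA (ENSG00000134333, chr11:18394388-18408425, plus strand), which reduces pyruvate to lactate, stood at 52090 in siControl under DMSO, 41610 in siControl with Nutlin-3a, 55480 in siRFX7 under DMSO and 41700 in siRFX7 with Nutlin-3a. The Nutlin-3a groups were the lower ones with either siRNA. Nutlin-3a lowered it, at -0.32 ± 0.03 (SE; adjusted p 2.32e-22) in siControl and -0.41 ± 0.03 (SE; adjusted p 2.23e-33) in siRFX7 per the authors' deposited tables. With siRFX7 it rose by 0.09 ± 0.03 (SE; adjusted p 0.0163) under DMSO, against 0.00 ± 0.03 (SE; adjusted p 0.938) under Nutlin-3a, per the authors' deposited tables. LDHB (ENSG00000111716, chr12:21635342-21757857, minus strand), which favours the reverse reaction, showed no called response to Nutlin-3a and fell with siRFX7, at -0.31 ± 0.10 (SE; adjusted p 0.0043) and -0.32 ± 0.10 (SE; adjusted p 0.00429), in the authors' deposited tables. SLC16A1 (ENSG00000155380, chr1:112911847-112957013, minus strand), the transporter MCT1, fell in all 4 comparisons, from -0.29 ± 0.04 with Nutlin-3a in siRFX7 to -0.16 ± 0.04 (SE) with siRFX7 under DMSO in the authors' deposited tables. SLC16A3 (ENSG00000141526, chr17:82228397-82261129, plus strand), the lactate exporter MCT4, fell with siRFX7, at -0.31 ± 0.09 (SE; adjusted p 0.00251) under DMSO and -0.29 ± 0.10 (SE; adjusted p 0.0144) under Nutlin-3a per the authors' deposited tables.

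PDK1, a kinase that keeps pyruvate from being oxidised in mitochondria, rose with siRFX7 under both treatments. PDK1 (ENSG00000152256, chr2:172555373-172608669, plus strand) stood at 405 in siControl under DMSO, 444 in siControl with Nutlin-3a, 606 in siRFX7 under DMSO and 626 in siRFX7 with Nutlin-3a. Both siRFX7 groups were above both siControl groups. The rise was 0.58 ± 0.08 (SE; adjusted p 1.03e-11) under DMSO and 0.50 ± 0.08 (SE; adjusted p 2.95e-09) under Nutlin-3a, and the Nutlin-3a responses, 0.13 ± 0.08 and 0.05 ± 0.08 (SE), did not pass in the authors' deposited tables. PDK3 (ENSG00000067992, chrX:24465221-24541862, plus strand), a related kinase, passed in no table.

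Both HIF alpha subunits were higher with siRFX7, and EPAS1 also with Nutlin-3a. HIF1A (ENSG00000100644, chr14:61695513-61748259, plus strand) rose with siRFX7 by 0.20 ± 0.04 (SE; adjusted p 2.46e-05) under DMSO and 0.20 ± 0.04 (SE; adjusted p 4.38e-06) under Nutlin-3a, and Nutlin-3a values of -0.03 ± 0.04 and -0.03 ± 0.04 (SE) did not pass, in the authors' deposited tables. EPAS1 (ENSG00000116016, chr2:46293667-46386703, plus strand), which encodes HIF-2 alpha, stood at 1306 in siControl under DMSO, 1955 in siControl with Nutlin-3a, 2011 in siRFX7 under DMSO and 2620 in siRFX7 with Nutlin-3a. Each intervention gave a level above siControl under DMSO. Nutlin-3a raised it by 0.58 ± 0.05 (SE; adjusted p 6.86e-27) in siControl and 0.38 ± 0.05 (SE; adjusted p 2.18e-14) in siRFX7 per the authors' deposited tables. siRFX7 raised it by 0.62 ± 0.05 (SE; adjusted p 1.06e-28) under DMSO and 0.42 ± 0.05 (SE; adjusted p 7.47e-19) under Nutlin-3a per the authors' deposited tables. Per length it remained the lower subunit, at 5.09% of the pair in siControl under DMSO and 8.69% in siRFX7 with Nutlin-3a.

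The HIF hydroxylases behaved differently. EGLN1 (ENSG00000135766, chr1:231363751-231425044, minus strand), the main oxygen sensor PHD2, stood at 2075 in siControl under DMSO, 1914 in siControl with Nutlin-3a, 2547 in siRFX7 under DMSO and 1987 in siRFX7 with Nutlin-3a. The level in siRFX7 under DMSO was above the other 3. siRFX7 raised it under DMSO by 0.30 ± 0.04 (SE; adjusted p 4.64e-10) and by 0.06 ± 0.05 (SE; adjusted p 0.459) under Nutlin-3a, which did not pass, in the authors' deposited tables. Nutlin-3a lowered it in siRFX7, at -0.36 ± 0.04 (SE; adjusted p 5.41e-15), against -0.12 ± 0.05 (SE; adjusted p 0.0604) in siControl, in the authors' deposited tables. EGLN3 (ENSG00000129521, chr14:33924231-34462774, minus strand), itself a hypoxia-induced gene, fell with Nutlin-3a in siControl by 0.35 on the log2 scale (SE 0.12; adjusted p 0.00872) per the authors' deposited table and passed in no other.

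Among 8 HIF targets outside glycolysis, 4 rose with siRFX7 under DMSO and 2 fell. Of all genes 19.9% rose and 17.5% fell there, or 35.6% and 20.3% at a base mean of 1000 or more. VEGFA (ENSG00000112715, chr6:43770184-43786487, plus strand), the angiogenic growth factor, stood at 1559 in siControl under DMSO, 1623 in siControl with Nutlin-3a, 2014 in siRFX7 under DMSO and 2142 in siRFX7 with Nutlin-3a. It rose with siRFX7 by 0.37 ± 0.05 (SE; adjusted p 2.24e-12) under DMSO and 0.40 ± 0.04 (SE; adjusted p 1.57e-17) under Nutlin-3a, and its responses to Nutlin-3a did not pass, in the authors' deposited tables. P4HA1 (ENSG00000122884, chr10:73007217-73096974, minus strand), a collagen prolyl hydroxylase subunit, rose with siRFX7 by 0.47 ± 0.05 (SE; adjusted p 2.02e-18) and 0.34 ± 0.05 (SE; adjusted p 5.8e-12) in the same order in the authors' deposited tables, and with Nutlin-3a by 0.15 ± 0.05 (SE) in siControl. BNIP3 (ENSG00000176171, chr10:131966455-131982013, minus strand), a mitophagy receptor, rose with siRFX7 by 0.45 ± 0.06 (SE; adjusted p 5.66e-12) under DMSO and 0.26 ± 0.07 (SE; adjusted p 0.000422) under Nutlin-3a and fell with Nutlin-3a in siRFX7, at -0.27 ± 0.07 (SE; adjusted p 0.000196), in the authors' deposited tables. Its pseudogene BNIP3P1 was also higher with siRFX7, by 0.37 ± 0.08 and 0.29 ± 0.08 (SE), in the authors' deposited tables. BNIP3L (ENSG00000104765, chr8:26382898-26505636, plus strand), a related receptor, rose by 0.28 ± 0.04 (SE; adjusted p 1.06e-10) with Nutlin-3a in siControl and 0.26 ± 0.04 (SE; adjusted p 1.43e-08) with siRFX7 under DMSO in the authors' deposited tables.

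Of the remaining targets, ADM fell where it was called, NDRG1 was called in both directions with siRFX7, and CA9 and ANKRD37 were not called. ADM (ENSG00000148926, chr11:10304680-10307397, plus strand), the vasodilator adrenomedullin, fell with Nutlin-3a in siControl, at -0.40 ± 0.09 (SE; adjusted p 2.49e-05), the lowest called value there, and with siRFX7 under DMSO, at -0.35 ± 0.10 (SE; adjusted p 0.00202), in the authors' deposited tables. NDRG1 (ENSG00000104419, chr8:133237171-133302022, minus strand), a stress-response gene that p53 also regulates, stood at 6600 in siControl under DMSO, 7668 in siControl with Nutlin-3a, 6031 in siRFX7 under DMSO and 8586 in siRFX7 with Nutlin-3a. Its Nutlin-3a groups were the higher ones with either siRNA. Nutlin-3a raised it by 0.22 ± 0.04 (SE; adjusted p 2.22e-06) in siControl and 0.51 ± 0.04 (SE; adjusted p 1.15e-28) in siRFX7 per the authors' deposited tables. Its siRFX7 effect was -0.13 ± 0.04 (SE; adjusted p 0.00869) under DMSO and 0.16 ± 0.04 (SE; adjusted p 0.00095) under Nutlin-3a, the single member called in opposite directions (0.134% of all genes in both of the authors' deposited tables). CA9 (ENSG00000107159, chr9:35673856-35681159, plus strand), a carbonic anhydrase and a classic hypoxia marker, had a base mean of 3.97 and an SE of 0.81 in the authors' deposited table for Nutlin-3a in siControl; no value of it passed. ANKRD37 (ENSG00000186352, chr4:185396021-185400628, plus strand) passed in no table either, with SEs of 0.20 to 0.23. HK1, ALDOA, PDK3, CA9 and ANKRD37 were the 5 genes called nowhere.

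**Figure D4:**
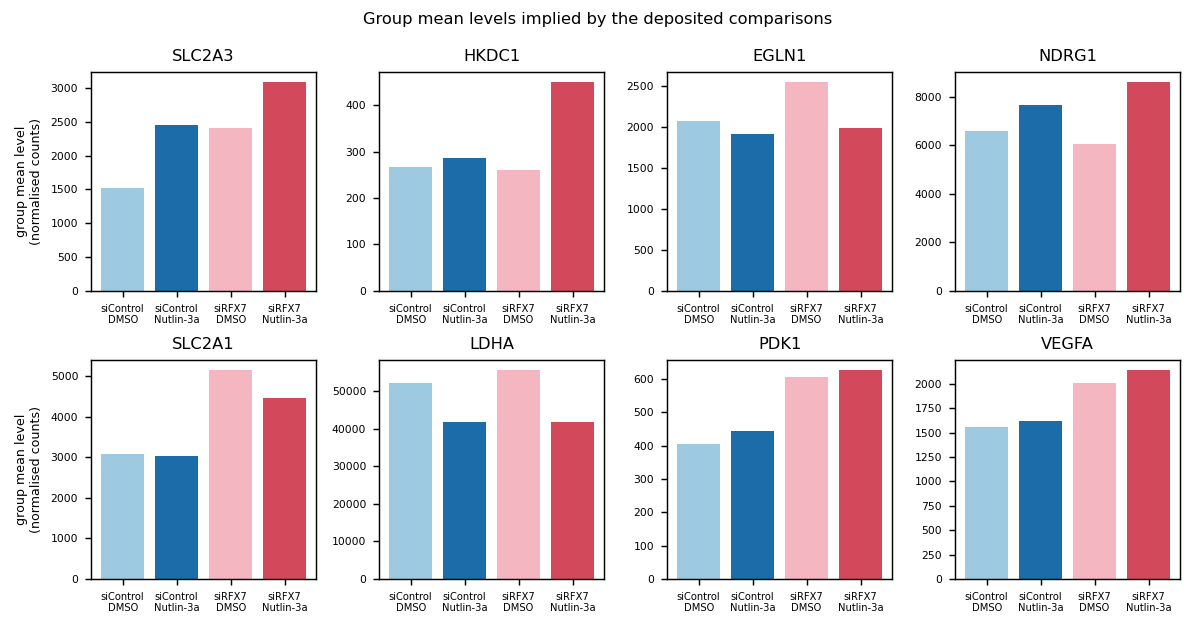
Group mean levels, in normalised counts from 0, of 8 genes in the 4 groups: siControl with DMSO and with Nutlin-3a (blue shades) and siRFX7 with DMSO and with Nutlin-3a (red shades); bars are single derived values without error bars, because no value of a single library was given. SLC2A1, PDK1 and VEGFA are higher in both siRFX7 groups, LDHA is lower in both Nutlin-3a groups, and HKDC1 is high in siRFX7 with Nutlin-3a.

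For 4 of the 39 genes the response to Nutlin-3a itself differed between siRFX7 and siControl. That difference was taken as the siRFX7 minus the siControl log2 value, with p-values adjusted over 21339 genes. Calls were made for 10.3% of the 39, against 0.937% of all genes and 2.14% of genes at a base mean of 1000 or more. The 39 genes were chosen with earlier results of these data known, so these shares are a description and no independent support. Of the 39, 2 responded more and 2 less in siRFX7, where 0.173% and 0.764% of all genes did, or 0.381% and 1.75% at that base mean. HKDC1 responded more in siRFX7, by 0.68 ± 0.14 (SE; adjusted p 0.000717; 95% interval 0.40 to 0.96), from 7.36% to 72.3% higher with Nutlin-3a. NDRG1 also responded more, by 0.29 ± 0.06 (SE; adjusted p 0.000654; 95% interval 0.17 to 0.41). SLC2A3 responded less, at -0.34 ± 0.08 (SE; adjusted p 0.00313; 95% interval -0.49 to -0.18). EGLN1 was lowered more in siRFX7, with a difference of -0.24 ± 0.07 (SE; adjusted p 0.041; 95% interval -0.37 to -0.11); it no longer passed when the test statistic was divided by its robust SD of 1.08 over genes (adjusted p 0.109). At an unadjusted p under 0.05 the difference held for 11 of 39 genes, against 6.32% of all genes. The other 7 were SLC2A1, TPI1, GAPDH, PKM, EPAS1, BNIP3 and BNIP3L, all with a negative difference, of which BNIP3L came nearest, at -0.21 ± 0.06 (SE; adjusted p 0.0899). For LDHA the difference was -0.09 ± 0.05 (SE), with a 95% interval of -0.18 to 0.00, and for VEGFA 0.03 ± 0.07 (SE), with one of -0.10 to 0.16. The siRFX7 and Nutlin-3a comparisons share groups of libraries, so the siRFX7 effects restate the same differences and do not test them anew.

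**Figure D5:**
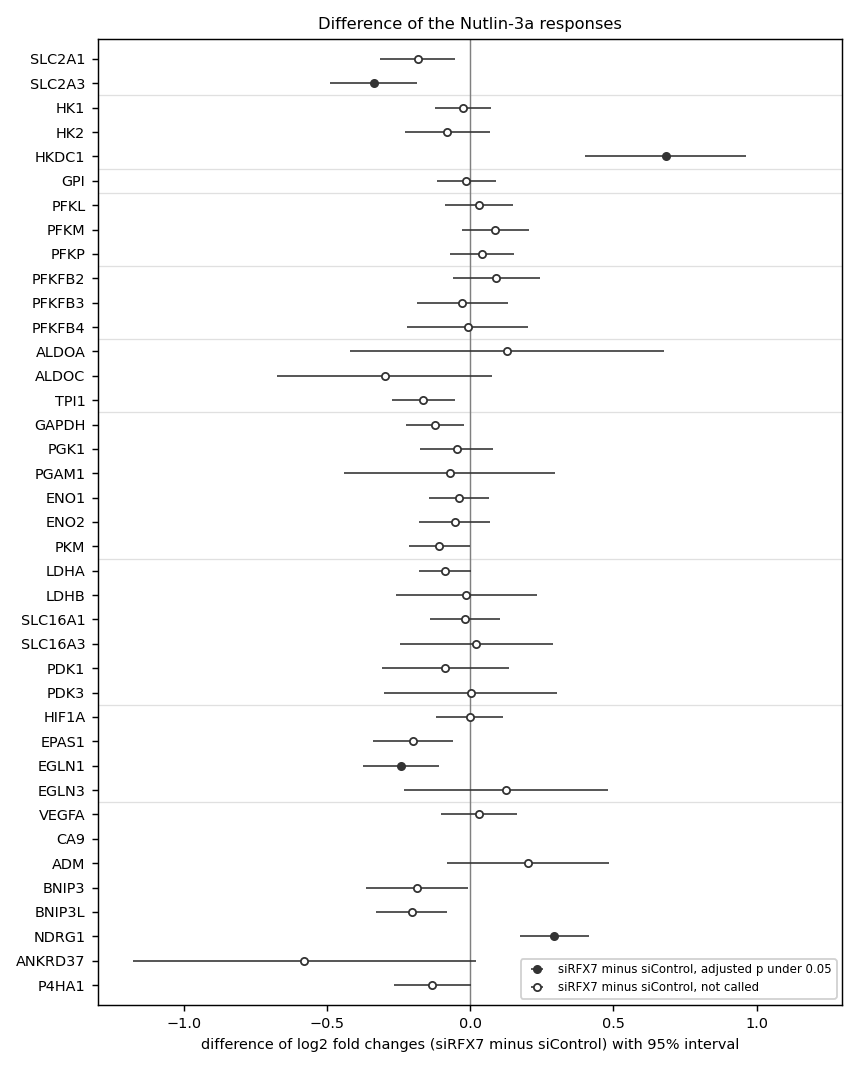
Difference of the Nutlin-3a responses, siRFX7 minus siControl, on the log2 scale with 95% intervals, for each gene except CA9; filled points have an adjusted p under 0.05. HKDC1 (0.68) and NDRG1 (0.29) lie to the right of 0, SLC2A3 (-0.34) and EGLN1 (-0.24) to the left, and the other points are open.

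The rest of the oxygen-sensing machinery, 10 genes, changed in part. With siRFX7 under DMSO 3 rose and 2 fell, and under Nutlin-3a 1 rose and 1 fell, in the authors' deposited tables. Of all genes, 19.9% and 17.2% rose and 17.5% and 15.4% fell in these comparisons. With Nutlin-3a in siControl and in siRFX7, 18.3% and 18.7% of all genes rose and 19.6% and 20.3% fell. Counts of the lists that follow stand beside these same shares, which were higher at a base mean of 1000 or more. ARNT, the partner of HIF alpha, rose under both, by 0.12 ± 0.05 and 0.16 ± 0.04 (SE), and CUL2, the scaffold of the ligase that destroys HIF alpha, fell under both, at -0.56 ± 0.05 (SE; adjusted p 2.55e-24) and -0.40 ± 0.05 (SE; adjusted p 2.95e-15), in the authors' deposited tables. With Nutlin-3a 2 rose and 3 fell in siControl, and in siRFX7 1 rose (HIF1AN, 0.17 ± 0.04) and 1 fell (ELOC, -0.31 ± 0.07), with SEs, in the authors' deposited tables. CITED2, which keeps HIF from its coactivator, had the list's only called difference of responses, -0.26 ± 0.07 (SE; adjusted p 0.0287), which did not pass with the robust SD (adjusted p 0.0816).

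Of 30 further HIF targets, 28 were in the tables, and they did not follow 1 direction. Nutlin-3a raised 14 and lowered 5 in siControl and raised 11 and lowered 7 in siRFX7, with medians of 0.14 and 0.06, in the authors' deposited tables. DDIT4, an mTORC1 inhibitor that p53 also induces, led in siControl with 1.80 ± 0.07 (SE) per the authors' deposited table. With siRFX7 10 rose and 6 fell under DMSO, and 5 rose and 8 fell under Nutlin-3a, with medians of 0.06 and -0.02, in the authors' deposited tables. WSB1, a ubiquitin ligase subunit, was highest, by 0.81 ± 0.05 and 0.77 ± 0.07, and TMEM45A lowest, at -0.81 ± 0.06 and -0.82 ± 0.06 (SE), under DMSO and Nutlin-3a per the authors' deposited tables. The lowest called values with Nutlin-3a were also those of TMEM45A, -0.36 ± 0.05 in siControl and -0.37 ± 0.07 in siRFX7 (SE), in the authors' deposited tables. The difference of responses was called for DDIT4, -1.28 ± 0.10 (SE; adjusted p 1.59e-31), and the circadian repressor BHLHE40, -0.34 ± 0.07 (SE; adjusted p 9.98e-05).

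Neighbouring pathways of glucose use were read in the same way. Of 7 pentose phosphate genes, 2 rose and 2 fell with Nutlin-3a in siControl, 2 rose and 4 fell in siRFX7, and 3 fell with siRFX7 under either treatment in the authors' deposited tables. PGLS rose with Nutlin-3a by 0.53 ± 0.08 and 0.63 ± 0.10, and RPIA was lowest throughout, from -0.37 ± 0.06 to -0.30 ± 0.06 (SE), in the authors' deposited tables. Of 11 genes of pyruvate entry into mitochondria, 2 and 3 fell and none rose with Nutlin-3a, where DLAT of the pyruvate dehydrogenase complex was lowest at -0.30 ± 0.04 and -0.28 ± 0.04 (SE) per the authors' deposited tables. With siRFX7 2 rose under each treatment, and 1 (DLD, -0.12 ± 0.05) and 2 (lowest PDK2, -0.27 ± 0.05) fell, while the phosphatase PDP1, which reactivates the complex, rose by 0.20 ± 0.06 and 0.20 ± 0.06 (SE) per the authors' deposited tables. Of 17 other glycolytic isoenzymes and sugar or lactate transporters, 10 to 12 were listed in a table. Nutlin-3a raised 3 and lowered 1 in siControl and raised 2 and lowered 2 in siRFX7, and siRFX7 raised 2 and lowered 4 under DMSO and raised 2 and lowered 5 under Nutlin-3a, per the authors' deposited tables. The glucose transporters SLC2A6 and SLC2A10 fell with siRFX7, at -0.24 ± 0.08 and -0.43 ± 0.18 under DMSO and -0.33 ± 0.09 and -0.41 ± 0.16 (SE) under Nutlin-3a, per the authors' deposited tables. ENO3, the muscle enolase, fell with siRFX7 at -0.63 ± 0.09 and -0.41 ± 0.09, and the monocarboxylate transporter SLC16A7 fell with Nutlin-3a at -0.39 ± 0.08 and -0.34 ± 0.08 (SE) per the authors' deposited tables. SLC16A7 rose with siRFX7, by 0.19 ± 0.08 and 0.25 ± 0.08 (SE), per the authors' deposited tables. SLC2A12, a further glucose transporter, rose with Nutlin-3a by 0.92 ± 0.08 and 0.46 ± 0.10 (SE) per the authors' deposited tables, a difference of -0.46 ± 0.13 (SE; adjusted p 0.0368), which did not pass with the robust SD (adjusted p 0.0997). No gene of the pentose phosphate and pyruvate lists had a called difference, nor one at an unadjusted p under 0.05 (0 of 7 and 0 of 11).

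A further sequence feature was read from the 3′ UTRs in GENCODE 29. The heptamer GTATCTA, which an earlier scan of these same fold changes had picked out, stood in the 3′ UTR of 1 of the 9 members that fell with siRFX7 under DMSO (HK2) and of none of the 19 that rose. The comparison took in only genes that code for protein, have a 3′ UTR and reach a base mean of 100. Among these the heptamer stood in 18.8% of the 2526 that fell, 4.69% of the 3159 that rose and 6.49% of the 5596 not called. It was chosen on these data and is given as a description.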

How the data were processed

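Poly(A) RNA of 16 U2OS samples was sequenced with a stranded TruSeq kit, per the labels' protocols, and samples were grouped by their titles. Per the submitters' processing notes, tools included Trimmomatic 0.39, featureCounts 1.6.5 and DESeq2 1.20.0, with build hg38; the aligner, the annotation and whether counting used strand are not given in the sources used here. The 4 deposited tables, per the file headers, give for each gene the authors' base mean (a signal: mean normalised count over 8 libraries), log2 fold change with SE, Wald statistic (a score) and p-value with its adjusted p-value. The sum of base means, 27946376 to 35311111 per table, stood for depth; single libraries were not seen. The deposited tables give siRFX7 relative to siControl and Nutlin-3a relative to DMSO, the direction in which RFX7 was lower with its siRNA.

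Genes were called at the authors' adjusted p under 0.05, with no new model over libraries. The difference of responses was the siRFX7 minus the siControl value, its SE the root of the summed squared SEs, with a two-sided normal p and Benjamini-Hochberg adjustment (Python 3.11.15, statsmodels 0.14.6); it was tested on simulated data. Group levels followed from base mean and log2 fold change, and positions and exon lengths from GENCODE 29, matched by gene identifier (99.9% of 23396); this may not be the authors' annotation. Alternatives were a stricter p, a minimum size, a base mean of 100, genes in all tables, centring, a robust SD and leaving out genes with shareable reads, the last, and the robust SD for the related lists, chosen after seeing the data. All 39 genes are named. Full values go to those called in the difference of responses, to the 3 highest and 3 lowest called values of each comparison and to those called in opposite directions. In the gene lists the highest and lowest called genes and those with a called difference are named. The 39 genes and the lists were chosen with earlier results of these data known.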

Additional observations from a re-analysis of the deposited data

Results flagged for a closer look

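The response to Nutlin-3a differed between siRFX7 and siControl, by the test of the difference itself, for 4 of the 39 genes and 5 genes of the related lists. Values are siRFX7 minus siControl on the log2 scale. Among glycolysis and hypoxia-response genes, the difference was 0.68 ± 0.14 (SE; adjusted p 0.000717) for HKDC1, 0.29 ± 0.06 (SE; adjusted p 0.000654) for NDRG1, -0.34 ± 0.08 (SE; adjusted p 0.00313) for SLC2A3 and -0.24 ± 0.07 (SE; adjusted p 0.041) for EGLN1. For HKDC1 the response was called in siRFX7 and not in siControl in the authors' deposited tables, for NDRG1 it was a rise in both, for SLC2A3 a smaller rise in siRFX7, and for EGLN1 a fall called in siRFX7 alone. EGLN1 did not pass with the robust SD (adjusted p 0.109).

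In the related lists the difference was -1.28 ± 0.10 (SE; adjusted p 1.59e-31) for DDIT4, -0.34 ± 0.07 (SE; adjusted p 9.98e-05) for BHLHE40, -0.46 ± 0.13 (SE; adjusted p 0.0368) for SLC2A12, -0.32 ± 0.07 (SE; adjusted p 0.00244) for SESN2 and -0.26 ± 0.07 (SE; adjusted p 0.0287) for CITED2. DDIT4, BHLHE40, SLC2A12 and SESN2 rose with Nutlin-3a in both of the authors' deposited tables, and less so in siRFX7. With the robust SD, a check of these lists added after seeing the data, CITED2 (adjusted p 0.0816) and SLC2A12 (0.0997) did not pass, and the other 3 did.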

How the results depend on the processing

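With a size of at least 0.25 on the log2 scale required as well, 9 genes were called for Nutlin-3a in siControl (4 higher, 5 lower) and 11 in siRFX7 (4 and 7). For siRFX7 it was 15 under DMSO (11 and 4) and 13 under Nutlin-3a (9 and 4). No share of all genes at this size was taken for comparison. The other settings moved no total by over 1.5 times: without the 9 genes with shareable reads, totals in the same order were 15, 13, 21 and 15, and 3 for the difference of responses. By direction, leaving them out took the falls from 12 to 7 for Nutlin-3a in siRFX7 and from 7 to 4 for siRFX7 under Nutlin-3a, and an adjusted p under 0.01 took the rises from 10 to 6 for Nutlin-3a in siControl and the falls from 7 to 4 for siRFX7 under Nutlin-3a. The negative differences of responses went from 2 to 1 without those genes, at an adjusted p under 0.01, at the minimum size and with the robust SD. No called value changed sign under any setting that was run, though thresholds, filters and a scaled statistic cannot change a sign. EGLN1 left the called differences at an adjusted p under 0.01, at the minimum size and with the robust SD. Centring on the median of genes at a base mean of 100 or more ended the calls of PGK1 for Nutlin-3a in siControl (adjusted p 0.064), of ENO1 in siRFX7 (0.0818) and of ENO1 (0.102) and PKM (0.0913) for siRFX7 under DMSO; these call changes follow from the setting's own shift of small values. It added calls of PFKFB4 and VEGFA for Nutlin-3a in siRFX7, and a base mean minimum of 100 before adjustment added 3 in siControl (TPI1, PGAM1 and EGLN1) and 2 in siRFX7 (PFKP and PFKFB4). Differences taken from the siRFX7 tables gave 4 calls, 2 in each direction. They are the same contrast of the same libraries, with member values at most 0.0035 apart, and so are no separate check. No fit without a replicate could be run. CA9 and ANKRD37, with base means under 100, allow no statement on small changes. No paired analysis was possible because the tables hold group comparisons without values of single libraries.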

Other observations

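Other genes that bear on glucose use responded to Nutlin-3a. Of 6 p53 targets acting on glucose metabolism, 5 rose in siControl and all 5 listed rose in siRFX7 per the authors' deposited tables. The list was chosen as p53 targets, and of all genes 18.3% rose in siControl and 18.7% in siRFX7. TIGAR, which slows glycolysis, rose by 1.45 ± 0.05 and 1.40 ± 0.05 (SE), and GLS2, a glutaminase with base means of only 4.66 and 5.03, by 2.77 ± 0.88 and 2.92 ± 0.84 (SE), per the authors' deposited tables. RRAD, a small GTPase and the highest of the list in siControl, rose by 2.77 ± 0.16 with Nutlin-3a in siControl and was lower with siRFX7, at -1.02 ± 0.29 under DMSO and -1.44 ± 0.15 (SE) under Nutlin-3a, per the authors' deposited tables. The sestrins SESN1 and SESN2, which damp mTORC1, were higher with siRFX7 under DMSO, by 0.43 ± 0.09 and 0.48 ± 0.05 (SE), per the authors' deposited table.

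Of 10 listed glycogen and gluconeogenesis genes, 5 rose and 1 fell with Nutlin-3a in siControl, 6 rose and 1 fell in siRFX7, 1 rose and 5 fell with siRFX7 under DMSO, and 1 rose and 4 fell under Nutlin-3a per the authors' deposited tables. In the same order 18.3%, 18.7%, 19.9% and 17.2% of all genes rose and 19.6%, 20.3%, 17.5% and 15.4% fell. PPP1R3B, which brings a phosphatase to glycogen, rose with Nutlin-3a by 0.57 ± 0.08 and 0.69 ± 0.11 and was lower with siRFX7 at -0.55 ± 0.10 and -0.43 ± 0.09 (SE) per the authors' deposited tables. PGM1, which links glycogen to glycolysis, was the single gene higher with siRFX7, by 0.53 ± 0.05 and 0.53 ± 0.05, and UGP2 the single one lower with Nutlin-3a, at -0.30 ± 0.04 and -0.23 ± 0.04 (SE), per the authors' deposited tables. No gene of this list had a called difference of responses, nor one at an unadjusted p under 0.05 (0 of 10).

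Of 5 genes for the glucose sensor MondoA and its targets, 4 rose and 1 fell with Nutlin-3a in siControl, and 1 rose and 1 fell in siRFX7, per the authors' deposited tables. In the same order 18.3% and 18.7% of all genes rose and 19.6% and 20.3% fell. TXNIP, which limits glucose uptake, stood at 1.01 ± 0.13 in siControl, where it rose, and 0.28 ± 0.18 (SE) in siRFX7, where it did not pass, per the authors' deposited tables. It fell with siRFX7, at -0.48 ± 0.17 under DMSO and -1.21 ± 0.14 (SE) under Nutlin-3a per the authors' deposited tables. The difference of its responses, -0.73 ± 0.22 (SE; adjusted p 0.0979), did not pass, and 2 of the 5 genes had an unadjusted p under 0.05. Its paralogue ARRDC4 rose with siRFX7 under DMSO by 0.54 ± 0.14 and MLXIP, which encodes MondoA, by 0.40 ± 0.05 (SE) per the authors' deposited table.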
